A study of Danio rerio with 4 samples.

Results

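Wide peaks open in both groups are stretches of accessible chromatin, 1000 bp or longer, that the authors' peak lists contain for control and for actl6a-knockdown pronephric duct alike. The 2 deposited lists were merged wherever their intervals touched or overlapped on the 25 named chromosomes. A merged peak was kept when it overlapped at least 1 interval of each list and reached the width limit. Chromosome 4 beyond 30000000 was left out, which removed 20 such peaks. The selection gave 2099 wide shared peaks among 29639 union peaks, or 7.08% of them. They made up 22.0% of the shared peaks of the same regions and 36.4% of the length of those peaks, and they covered 2.72 Mb or 0.202% of the named chromosomes. Per the labels, each peak list belongs to the libraries of its group, so the presence of signal in both groups is what chose these peaks, and their levels are given as a description.

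The pronephric duct is a tubule of the embryonic zebrafish kidney. Control embryos (genotype WT) had received a standard control morpholino and the other embryos (genotype actl6a knockdown) a morpholino that blocks translation of actl6a, in both cases at the 1-cell stage. All embryos came from a line in which Na, K-ATPase alpha1A4:GFP labels pronephric epithelia, and ducts were taken at 30 hours post fertilization. Each of the 2 control and 2 actl6a libraries came from a pool of 15 embryos, from which about 10 GFP-positive duct fragments were picked by eye, and 10000 to 20000 viable cells entered the library. A morpholino injected this early reaches the whole embryo, so the knockdown is not restricted to the duct. The labels call the libraries of a group separate samples without naming separate clutches, so p-values measure the spread between these samples, which may be technical. The tissue label was not checked against marker genes, and no gene is assigned to a peak here, because no annotation of the GRCz11 build was used.

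In ATAC-seq a transposase inserts sequencing adapters into DNA that is not wrapped tightly around nucleosomes, and the density of inserts is read as accessibility. SWI/SNF complexes use ATP to slide or evict nucleosomes at promoters and enhancers. Actl6a is an actin-related subunit of these complexes and, in mammals, also of the INO80 and TIP60 complexes. Long accessible stretches are commonly found at promoters with extended nucleosome-free regions and where several regulatory elements lie side by side. In bulk libraries, a smaller share of cells with an open region and less opening per cell cannot be told apart.

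The tracks hold coverage in bins of 50 bp, and every value below is the signal divided by the mean of its own track over the named chromosomes, so that 1 is the genome mean. Paired values give replicate 1 before replicate 2, and positions are on GRCz11. The steps of the track values correspond to 117 to 165 M reads per library, and both control libraries were shallower than both actl6a libraries. On the named chromosomes 4.65% to 8.20% of bins held no coverage. A wide shared peak held a median of 346 to 383 inferred reads per library and at least 81.1 in any library. At that depth counting error would be 0.074 to 0.078 on the log2 scale if the reads were independent molecules, which the files do not show. Within groups, the SD of the log2 signal had a median of 0.24, larger than that counting error.

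The wide shared peaks had a median width of 1191 bp, with quartiles at 1082 and 1401 bp, and the widest measured 3596 bp. In 1985 of them (94.6%) exactly 1 interval of each list had been joined, and no peak was built from more than 4 intervals. A control interval reached 1000 bp by itself in 1452 peaks and an actl6a interval in 995. Both did so in 609 peaks, and in 261 neither did, so that only the merged stretch was wide. The control list covered a median of 1087 bp of a peak and the actl6a list 987 bp, and 1382 peaks (65.8%) had more length in the control list. A median of 65.3% of the width was in both lists.

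Peaks on both sides of the width limit had signal above the genome mean. The 3 narrowest, all of 1000 bp, lay on chromosome 13 at 28239070 to 28240069, on chromosome 2 at 843262 to 844261 and on chromosome 22 at 160762 to 161761, with mean signals of 3.07, 3.06 and 2.72 times the genome mean. Just outside the limit, 3 shared peaks of 999 bp lay on chromosome 19 at 43715813 to 43716811, on chromosome 20 at 32405454 to 32406452 and on chromosome 21 at 40399800 to 40400798. Their mean signals were 2.08, 3.19 and 2.70.

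The rule fixed that most of these peaks carry signal in the tracks, so the following counts only describe them. Signal was above the genome mean in all 4 libraries in 2085 peaks and above that of the flanks, 500 to 1500 bp outside the peak, in all 4 libraries in 2066. In 64.1% of the peaks it was at least 2 times the flank signal in every library. In 14 peaks signal was not above the genome mean in at least 1 library. In 33 it was not above the flanks in at least 1 library, and in 5 of those it was not above them in any.

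Median signal over the wide shared peaks was 3.62 in control replicate 1 and 3.05 in control replicate 2, against 2.86 in actl6a replicate 1 and 2.33 in actl6a replicate 2. By group this was 3.34 ± 0.406 for control and 2.59 ± 0.376 for actl6a (SD, n = 2). Both actl6a libraries were below both control libraries, but control replicate 2 and actl6a replicate 1 were closer to each other than the replicates of either group were. Narrow shared peaks, whose median width was 635 bp, gave 4.07 and 3.41 (control) against 3.25 and 2.60 (actl6a). Wide peaks of the control list alone gave 2.29 and 2.03 in control libraries, where the list was made, and 1.54 and 1.44 in actl6a libraries.

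**Figure D1:**
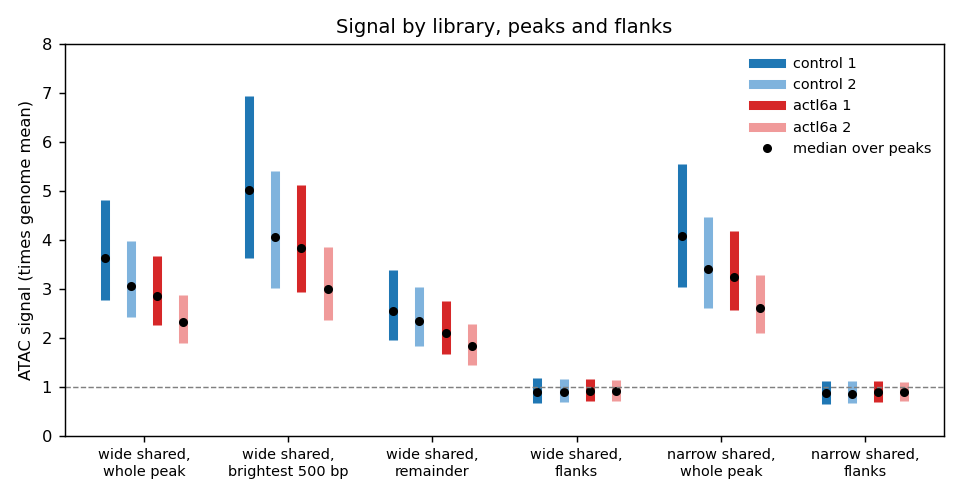
ATAC signal in times the genome mean (linear axis) for each of the 4 libraries; bars span the quartiles over peaks, black dots are medians, and the dashed line marks the genome mean. Medians over wide shared peaks run from 3.62 in control 1 to 2.33 in actl6a 2, whereas the flanks lie between 0.899 and 0.923 in all libraries.

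Most wide shared peaks were of moderate height. Averaged over the libraries, 82.4% had between 2 and 5 times the genome mean, 183 had less than 2 and 14 had 10 or more. Width and mean signal were nearly unrelated across the 2099 peaks (Spearman's rho -0.054, a description over peaks that share libraries). The 3 peaks closest to the medians of width, signal and change, chosen after their values had been seen, give an idea of a usual member. On chromosome 9 at 2761974 to 2763172, signal was 4.58 and 2.12 (control) against 2.73 and 2.16 (actl6a). On chromosome 5 at 19064092 to 19065296 it was 3.84 and 2.66 (control) against 2.78 and 2.30 (actl6a). On chromosome 21 at 13160187 to 13161347 it was 3.25 and 3.18 against 3.63 and 1.74. In all 3 of them the groups overlapped, and the replicates of 1 group were further apart than the group means.

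The median profile of the wide shared peaks, aligned on their midpoints, was broad. It does not give the form of single peaks. At the midpoint the median profile stood at 3.62 and 3.12 in control and at 2.91 and 2.32 in actl6a libraries. At 500 bp to the right of it, it was still 2.80 and 2.46 (control) against 2.25 and 1.98 (actl6a), and at 1000 bp it was between 0.888 and 0.934. Narrow shared peaks were higher at the midpoint, at 4.85 and 4.02 (control) against 3.84 and 3.01 (actl6a), and were at 0.939 to 0.989 by 500 bp. For wide peaks, the 4 libraries stood in the same order at the midpoint and at 500 bp on either side.

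**Figure D2:**
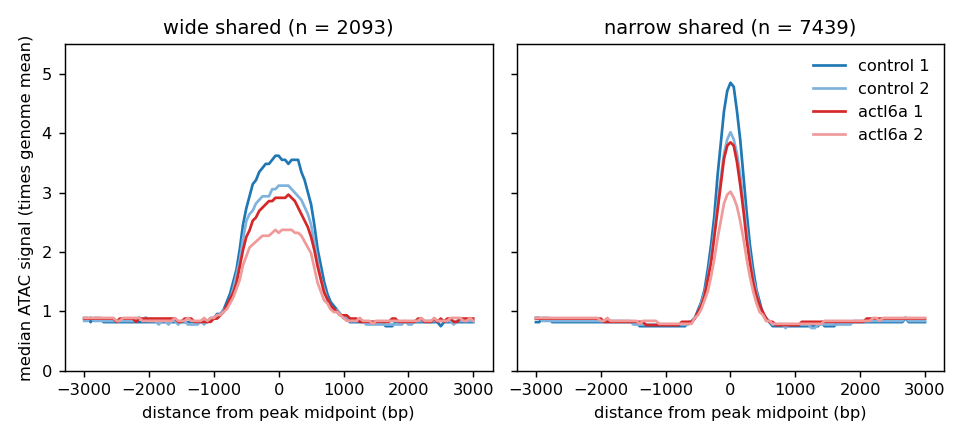
Median ATAC signal (times the genome mean, linear axis) in 50 bp bins against distance from the peak midpoint for 2093 wide and 7439 narrow shared peaks that lie far enough from chromosome ends; 1 line per library. The median profile of wide peaks is broad, highest in control 1 (3.62 at the midpoint) and lowest in actl6a 2 (2.32), and at 1000 bp on either side the wide-peak lines lie between 0.879 and 0.934.

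A single peak of coverage inside the stretch was the usual form. After smoothing over 150 bp and pooling the libraries, 1504 peaks had 1 maximum and 595 (28.3%) had at least 2, counting maxima that rose by 25% or more of the highest value above the trough beside them. Of these, 552 had exactly 2 maxima, which lay a median of 750 bp apart (quartiles 600 and 950 bp). Between them signal sank to a median of 50.5% of the lower maximum. Peaks with more than 1 maximum became more frequent with width, from 18.2% of the 1252 peaks below 1250 bp to 32.6% of 472 up to 1500 bp, 50% of 300 up to 2000 bp and 84% of the 75 that were wider still. The group difference was close in both forms, with a median log2 change (actl6a minus control) of -0.32 in peaks with 1 maximum and -0.28 in peaks with more.

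The brightest 500 bp of a peak, chosen on the mean of all 4 libraries, held a median of 55.3% and 53.0% of its signal in control libraries, against 53.9% and 51.4% in those of actl6a. By group this was 54.1% ± 1.65 for control and 52.6% ± 1.80 for actl6a (SD, n = 2), and the libraries of the groups overlapped. The brightest 50 bp bin fell within 100 bp of the same place in 62.3% of peaks between the control libraries and in 57.7% between the actl6a libraries. Between libraries of different groups the share was 54.8% to 64.2%, which includes both within-group values.

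Relative to the genome mean, signal was lower in the actl6a libraries over most wide shared peaks. The median log2 change was -0.32, a fold of 0.804, with quartiles at -0.47 and -0.15 and extremes of -1.22 and 1.04. Without actl6a replicate 2 the median was -0.18. The change was below 0 in 1886 of the 2099 peaks (89.9%), against 84.9% of narrow shared peaks and 77.1% of all union peaks. The union also holds peaks listed in 1 group only. Among wide peaks of the control list alone, which had to be missing from the actl6a list, the change was below 0 in 95%. Narrow shared peaks had a median log2 change of -0.30. Changes are on the scale log2(signal + 0.5), which understates those of peaks with low signal. The median over all union peaks was -0.36, and it moved to -0.083 when libraries were scaled on their median signal over union peaks instead of the genome mean. That scaling left a median of -0.029 over the wide shared peaks, with 54.7% of them below 0. On the same scaling 51.9% of narrow shared peaks and 57.8% of all union peaks were below 0, so the order of these shares depended on the scaling.

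In 1049 wide shared peaks (49.98%) both actl6a libraries had less signal than either control library, and in 37 (1.76%) both had more. Over all union peaks the corresponding shares were 47.1% and 11.03%. Nothing is read from these shares, because a peak had to be listed in both groups to be kept, which limits how far its groups can differ. With the scaling on the union peak median, 424 wide shared peaks (20.2%) were lower in both actl6a libraries and 335 (15.96%) higher, against 25.3% and 21.1% of all union peaks. The split between lower and higher thus depended on the scaling.

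No wide shared peak passed an adjusted p of 0.05 in limma (Benjamini-Hochberg over all 29639 union peaks), where 0.233% of all union peaks did. Without chromosome 4, 0 of 28497 union peaks passed that threshold. At an unadjusted p under 0.05 in limma, 151 wide shared peaks were lower and 1 was higher in actl6a libraries, together 7.24% of them. Over all union peaks 18.4% were lower and 4.41% higher at that level. These splits depended on the scaling: on the union peak median, 28 wide shared peaks were lower and 12 higher, and 1778 union peaks were lower and 2861 higher, so that the balance over all union peaks turned. With quantile normalization, 24 wide shared peaks were lower and 21 higher, and 1631 union peaks were lower and 3002 higher. The median log2 change of the wide shared peaks was -0.21 without control replicate 1, -0.18 without actl6a replicate 2 and -0.45 without actl6a replicate 1. Over all union peaks it was -0.26, -0.24 and -0.43 with the same libraries left out. At an adjusted p under 0.1 in limma, where 3.67% of all union peaks passed, 8 wide shared peaks did, 7 lower and 1 higher. The smallest adjusted p among the wide shared peaks was 0.0645. These counts rest on the same contrast that limited membership, and they are given as values only.

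**Figure D3:**
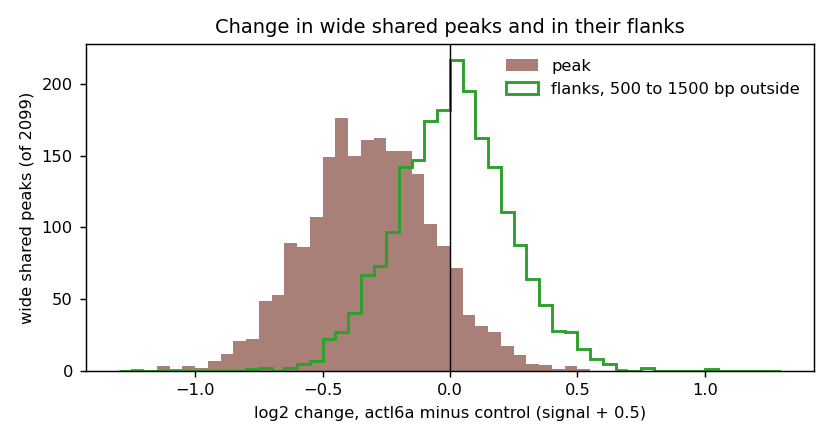
Number of wide shared peaks (of 2099) by log2 change, actl6a minus control, in steps of 0.05: filled bars for the peak itself and the green outline for its flanks. The peak values centre on -0.32 and the flank values on 0.015.

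The libraries of 1 group differed nearly as much as the groups. The median log2 difference was -0.22 from control replicate 1 to control replicate 2 and -0.26 from actl6a replicate 1 to actl6a replicate 2. Between control replicate 2 and actl6a replicate 1 it was -0.073, with 60.6% of peaks lower in the actl6a library. Control replicate 1 was the highest library in 1438 peaks (68.5%) and actl6a replicate 2 the lowest in 1465 (69.8%). The full order from control replicate 1 through control replicate 2 and actl6a replicate 1 to actl6a replicate 2 was seen in 652 of the 2099 peaks. All 652 are among the 1049 in which both actl6a libraries had less signal than either control library. These counts were not made over all union peaks, so nothing particular to the wide shared peaks is read from them. Median signal over all union peaks had the same order of libraries, at 2.74, 2.47, 2.20 and 1.94. That order of libraries is the reverse of the order of inferred depth, which was 117, 136, 148 and 165 M reads. Group and depth thus cannot be told apart with these 4 libraries.

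Median differences were larger in classes of higher signal, within groups as well as between them, but not among the 11 highest peaks, whose median log2 change was -0.067. The peaks were divided by mean signal into 4 classes of nearly equal size. That mean is taken over the same 4 libraries that are compared, so the classes and the differences were not independent of each other. In the lowest class, 0.885 to 2.40 times the genome mean, the median log2 change between groups was -0.17. It was -0.29 and -0.36 in the middle classes and -0.44 in the highest class. The difference between the control replicates went from -0.12 in the lowest to -0.31 in the highest class, and that between the actl6a replicates from -0.13 to -0.36. With a pseudocount of 0.1 in place of 0.5 the group change still ran from -0.20 to -0.48.

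**Figure D4:**
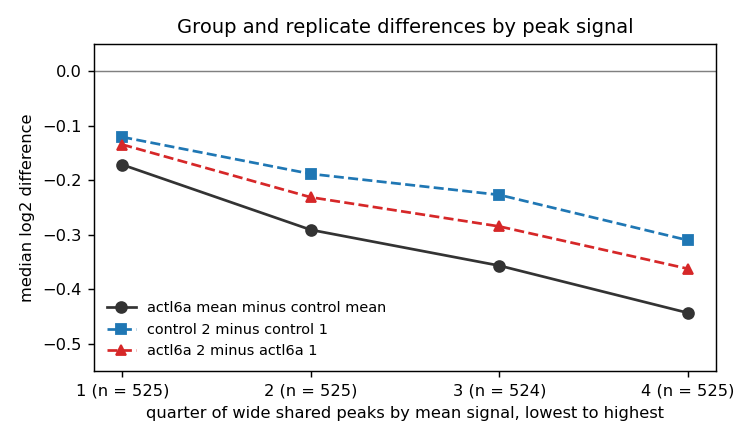
Median log2 difference (linear axis) in 4 nearly equal classes of the wide shared peaks by mean signal, for the actl6a mean minus the control mean and for replicate 2 minus replicate 1 within each group. All 3 lines descend, the group line from -0.17 to -0.44, the control replicates from -0.12 to -0.31 and the actl6a replicates from -0.13 to -0.36.

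The brightest stretch of a peak and its remainder are compared next. In the brightest 500 bp, median signal was 5.03 and 4.06 (control) against 3.83 and 2.99 (actl6a), and the median log2 change was -0.36. In the remainder of the peak, signal was 2.55 and 2.34 (control) against 2.10 and 1.83 (actl6a), with a median log2 change of -0.27. The change was more negative in the brightest part than in the remainder in 60.7% of peaks. The same was true of 63.98% of peaks between the control replicates and 61.6% between the actl6a replicates. From control replicate 2 to actl6a replicate 1 it was true of 44.7%, with medians of -0.055 in the brightest part and -0.11 in the remainder, the opposite order. Over the central 500 bp of a peak, which need not hold its brightest part, the median log2 change between groups was -0.32, as over the whole peak. The brightest part was lower in both actl6a libraries than in either control library in 922 peaks (43.9%), and the remainder in 931 (44.4%). For union peaks wide enough to be divided these shares were 45.1% and 37.1%.

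Of all signal on the named chromosomes, wide shared peaks held 0.965% in control replicate 1, 0.837% in control replicate 2, 0.776% in actl6a replicate 1 and 0.667% in actl6a replicate 2. By group this was 0.901% ± 0.0904 for control and 0.722% ± 0.0771 for actl6a (SD, n = 2). The difference was -0.179 percentage points, and it was -0.116 without control replicate 1. Control replicate 2 and actl6a replicate 1 were closer to each other in this share than the replicates of either group were. No p-value is given for the difference, since the share is a sum over peaks chosen from these libraries. Narrow shared peaks also held less in actl6a libraries, 1.603% ± 0.160 against 1.945% ± 0.180 in control (SD, n = 2), a difference of -0.342 points. Both differences are relative to the genome mean.

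The flanks lie outside the intervals that chose the peaks, and relative to the genome mean their median was slightly higher in the actl6a libraries. Each library was divided by its own genome mean, so peak and flank signal were not independent of each other. The flanks were not fitted on another scaling, and the part of the scaling in this difference was not tested. Median flank signal was 0.901 and 0.899 (control) against 0.923 and 0.910 (actl6a), or 0.900 ± 0.00165 and 0.916 ± 0.00871 (SD, n = 2). The median log2 change of the flanks was 0.015, and it was 0.026 over the flanks of all union peaks. Both actl6a libraries were below both control libraries in the flanks of 363 wide shared peaks (17.3%) and above them in 403 (19.2%), where the shares over all union peaks were 14.97% and 20.3%. At an unadjusted p under 0.05 in limma, 74 flanks were higher and 72 lower, together 6.96%, against 3.86% higher and 2.44% lower over all union peaks. From 1500 to 3000 bp outside the peak the medians were 0.946 and 0.946 (control) against 0.949 and 0.954 (actl6a). Across the 2099 peaks, the change of the peak and that of its flanks were nearly unrelated (Spearman's rho 0.070, a description).

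A single wide shared peak was called in its flanks, at an adjusted p under 0.05 in limma over all flanks, where 0.132% of all flanks were called. It lay on chromosome 21 at 30031527 to 30032730. Without chromosome 4, 9 of 28497 flanks were called, among them those of this peak. Its flanks had 0.353 and 0.427 times the genome mean (control) against 1.15 and 1.45 (actl6a), so that the groups were well apart. The log2 change of the flanks was 1.01 (adjusted p = 0.00629 in limma). The peak between them had 4.60 and 3.97 (control) against 2.94 and 3.47 (actl6a), lower in both actl6a libraries, with a log2 change of -0.37. It was chosen after its values had been seen. The flank was no longer called without control replicate 1, without actl6a replicate 1 or without actl6a replicate 2. Without control replicate 2 it was still called, with a log2 change of 1.07.

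The largest differences downward, among peaks whose groups did not overlap, were all between -1.09 and -1.22 on the log2 scale, and none of them passed an adjusted p of 0.05 in limma. On chromosome 21 at 43445856 to 43446966, signal was 8.83 and 6.22 (control) against 3.22 and 2.59 (actl6a), or 7.52 ± 1.85 and 2.90 ± 0.446 (SD, n = 2). The log2 change was -1.22 (SE 0.325, adjusted p = 0.0645 in limma), the smallest p of any wide shared peak, and flank signal was 1.33 and 0.869 (control) against 0.813 and 1.05 (actl6a).

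On chromosome 20 at 31711681 to 31712705, signal was 4.91 and 5.38 (control) against 3.03 and 1.40 (actl6a), with a log2 difference of -1.12 and actl6a replicates far apart. On chromosome 4 at 22462969 to 22464052 it was 5.02 and 5.34 against 1.84 and 2.44, a log2 change of -1.12. The control replicates were closer together than the actl6a replicates. The actl6a list held 402 bp of this 1084 bp peak. Over the whole peak the adjusted p was 0.0846 in limma. In its central 500 bp the log2 change was -1.49 (adjusted p = 0.0292 in limma). No other wide shared peak was under 0.05 in that alternative, where 56 of 29639 union peaks were. These p-values rest on the same contrast that limited membership, and they are given as values only.

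On chromosome 14 at 9354110 to 9355448, signal was 7.18 and 5.21 (control) against 2.88 and 2.28 (actl6a), and the log2 change was -1.11. On chromosome 5 at 41123574 to 41124621 it was 6.03 and 5.37 against 2.34 and 2.49, a log2 change of -1.09. Adjusted p in limma was 0.0645 to 0.0873 for these 5 peaks, and the library with the fewest had 170 inferred reads. Their flank log2 changes ran from -0.15 to 0.035.

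Relative to the genome mean, differences upward were fewer and smaller. The log2 change was 1 or higher in 1 wide shared peak and -1 or lower in 8. The balance between upward and downward differences depended on the scaling, as given above. On chromosome 17 at 44730968 to 44732363, signal was 2.02 and 1.73 (control) against 4.63 and 4.11 (actl6a), or 1.88 ± 0.207 and 4.37 ± 0.367 (SD, n = 2). The log2 change was 1.04 (SE 0.327, adjusted p = 0.0975 in limma), and the flanks were higher as well in both actl6a libraries, at 1.18 and 1.09 against 0.927 and 0.679. The control list held 699 bp of this peak and the actl6a list all 1396 bp.

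On chromosome 3 at 55266211 to 55267222, signal was 1.25 and 1.20 (control) against 2.27 and 2.22 (actl6a), with a log2 difference of 0.67 and replicates close together. On chromosome 1 at 59106338 to 59108648 it was 1.83 and 2.68 against 3.03 and 3.71, a log2 change of 0.50, and the flanks moved with it from 0.583 and 0.611 to 0.961 and 1.05. The part of the flanks in the difference was not tested. On chromosome 12 at 23972620 to 23973982 signal was 2.16 and 2.66 against 3.84 and 3.37, and on chromosome 15 at 32437837 to 32438879 it was 1.28 and 0.968 against 1.63 and 1.93. Adjusted p in limma was 0.230 to 0.383 for these last 4 peaks.

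**Figure D5:**
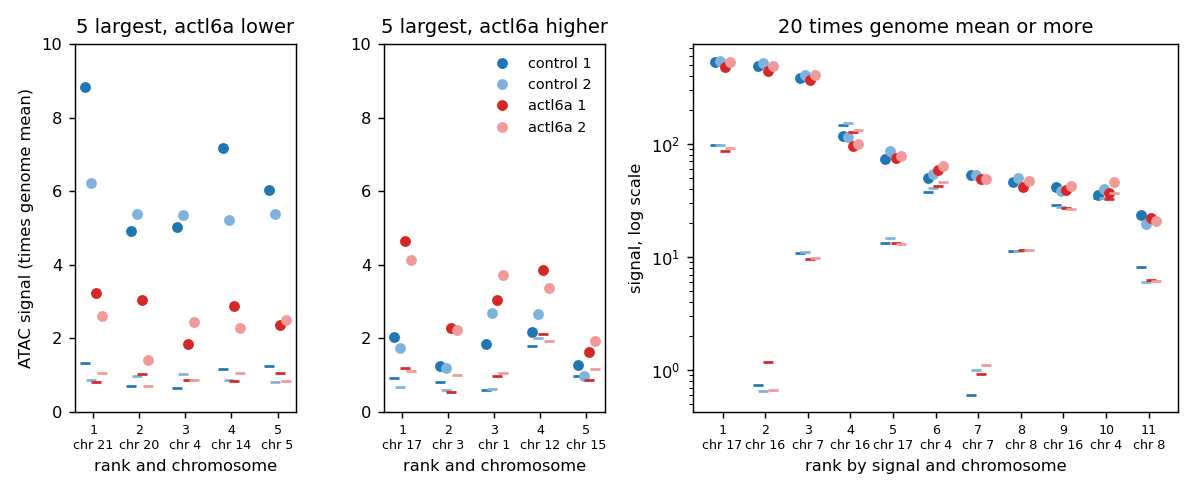
Signal (dots) and flank signal (dashes) per library, in times the genome mean, for the 5 peaks with the largest log2 change downward, the 5 with the largest upward (linear axes) and the 11 of 20 times the genome mean or more (log axis). In the left panel the control dots lie above the actl6a dots, by a log2 change of -1.09 to -1.22; in the right panel the libraries nearly coincide.

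A small set of 11 wide shared peaks had 20 times the genome mean or more, a limit chosen after the values had been seen; the next highest had 14.1. These peaks took 17.2% and 20.8% of the signal of all wide shared peaks in control libraries, against 19.9% and 25.5% in those of actl6a. The highest lay on chromosome 17 at 39940879 to 39942142, with 528 and 542 times the genome mean (control) against 479 and 526 (actl6a). On chromosome 16 at 25920996 to 25922003 it was 484 and 516 against 441 and 491. On chromosome 7 at 53018786 to 53020315 it was 379 and 409 against 368 and 408.

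In none of these 11 peaks did the log2 change pass 0.25 in size: it ran from -0.25 to 0.23, with a median of -0.067. Control replicate 2 was above control replicate 1 in 7 of the 11, among them the 3 highest. Relative to the genome mean, 3 of the 11 had both actl6a libraries below both control libraries and 1 had both above. Over all union peaks these shares were 47.1% and 11.03%. With scaling on the union peak median, the log2 change was above 0 in all 11, with a median of 0.27. On that scaling 0 had both actl6a libraries below and 6 had both above, where the shares over all union peaks were 25.3% and 21.1%. The direction of the 11 peaks thus depended on the scaling. Without these 11 peaks the median log2 change of the wide shared peaks was still -0.32.

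Flanks were bright beside most of the 11. In 9 of them flank signal was at least 2 in all 4 libraries, as it was in 30 of all wide shared peaks. On chromosome 17 at 39940879 the flanks had 98.5 and 97.4 (control) against 86.2 and 92.7 (actl6a). On chromosome 16 at 25930652 to 25931691 the flanks, with 146 and 151 (control) against 128 and 133 (actl6a), exceeded the peak itself, with 118 and 114 against 95.8 and 99.7. By contrast the flanks of the peak on chromosome 16 at 25920996 had 0.739 and 0.661 (control) against 1.19 and 0.671 (actl6a), under 1 in 3 libraries beside a peak near 500 times the genome mean. The peak on chromosome 7 at 34467259 to 34468297 was of the same kind, with 53.3 and 53.1 (control) against 48.5 and 48.4 (actl6a) and flanks of 0.606 to 1.11. How reads that map to several places were assigned is not given in the sources used here, and its part in these values was not tested.

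The signal of the 5 widest peaks ranged from 0.953 to 3.86 times the genome mean over the libraries. The widest lay on chromosome 3 at 52225161 to 52228756, with 1.95 and 2.30 (control) against 2.39 and 2.20 (actl6a), 4 maxima and overlapping groups. On chromosome 16 at 43073725 to 43077040, signal was 1.40 and 1.14 (control) against 0.995 and 1.15 (actl6a), not clearly above flanks of 0.771 to 1.39. On chromosome 17 at 2180236 to 2183497 it was 3.86 and 2.35 against 2.18 and 2.61.

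On chromosome 14 at 49554315 to 49557527 signal was 1.98 and 1.37 (control) against 1.08 and 1.26 (actl6a), and on chromosome 20 at 17323535 to 17326718 it was 1.84 and 0.956 against 0.953 and 1.02. In 4 of these 5 peaks control replicate 1 was the highest library. By width class, the median log2 change was -0.32 below 1250 bp, -0.32 up to 1500 bp, -0.29 up to 2000 bp and -0.29 above that, and width and change were nearly unrelated across all 2099 peaks (Spearman's rho 0.015, a description).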

How the data were processed

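Coverage tracks and peak lists were used as deposited. Each track holds signal per 50 bp bin, which the authors made for 1 library and scaled in a way that no label or header gives. Per the submitters' processing notes, Bowtie2, Trim Galore, FastQC, deepTools and MACS2 were used with GRCz11; their roles, duplicate removal, the transposase shift and the handling of reads mapping to several places are not given in the sources used here. The authors deposited 1 peak list per group, with positions but no score; how replicates were combined is not given either. Depth was inferred from the steps of the tracks: 99.9992% of low values (up to 20 steps) were whole multiples within 0.1 of a step, and steps were read as RPKM per bin. Coordinates count from 1.

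Union peaks and their flanks (bins in any union peak left out) were fitted with limma 3.58.1 in R 4.3.3. The fit used lmFit and eBayes with trend, two-sided and with group only, on log2(scaled signal + 0.5). It had 2 residual degrees of freedom and prior ones of 32.9 for peaks and 154 for flanks, so that spread was largely pooled over features. The fit was also run on simulated independent normal draws, which hold no shift shared by the peaks of a library. The rest was done in Python 3.11.15 (scipy 1.17.1, pandas 2.3.3, numpy 2.4.6), with plots from matplotlib 3.10.9. Peaks named are the 5 widest, the 5 highest, the 5 largest differences in each direction among peaks whose groups did not overlap, and 3 on each side of the width limit; others are marked as chosen after their values had been seen. The members and lists were chosen with earlier results of these data known. Alternatives covered scaling, pseudocount, filter, region, width and threshold; a block for the replicate number was also fitted, and each library was left out once. Start sites, gene lists and sequences were planned and need an annotation or genome of the build; they were not analysed here, since the gene table used covers another assembly, GRCz12tu.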

Additional observations from a re-analysis of the deposited data

How the results depend on the processing

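The median log2 change of the wide shared peaks was below 0 in all 14 alternatives. It stayed within the spread between replicates of -0.32 in 12, and moved to -0.029 with scaling on the union peak median and to -0.0046 with quantile normalization, both of which align the peaks by construction. The 12 all kept the scaling to the genome mean. Among them, the replicate block could not change this median, since each group held both replicate numbers. Without 1 library it ran from -0.45 to -0.18. The number of wide shared peaks called in limma was 0. It was 8 at an adjusted p under 0.1, where 1089 of 29639 union peaks passed, and 1 over the central 500 bp, where 56 did. With the replicate number as a block it was 100 (99 lower, 1 higher), where 2796 union peaks were called. The block fit left 1 residual degree of freedom and took its spread wholly from pooling over all union peaks. Which wide shared peaks were called, if any, changed with the library left out. In the fits without 1 library, the lone library was assumed to vary like the other group. The replicate numbers are not stated to pair samples, and differences between replicates 1 and 2 correlated between groups at r = 0.061 over the wide shared peaks. The block also gave 3 calls in the flanks, where 62 of 29639 flanks of union peaks were called. Without the block it was 1, where 39 were called. The median flank change of 0.015 was 0.0060 from 1500 to 3000 bp, 0.025 and 0.0059 with pseudocounts of 0.1 and 2, and 0.0096 to 0.023 without 1 library, with 0 to 4 flanks called. Widths of 800 and 1500 bp gave 3776 and 375 peaks; the latter held a share of signal that differed by -0.0383 points, against -0.179 (-0.243 to -0.116 without 1 library; -0.116 without control replicate 1). The brightest 500 bp held 53.4% of peak signal on average over libraries, 42.4% for the central 500 bp and 39.0% in peaks of 1500 bp or more, and 52.8% to 54.1% without 1 library. The cause of these changes was not tested. Leaving out the 11 highest peaks was added after the results had been seen. Start sites in peaks, with their alternatives, were not run. With 2 libraries against 2, no exact permutation test could pass 0.05.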

Other observations

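Wide shared peaks were spread over all 25 chromosomes. Their density was highest on chromosome 5, with 156 peaks or 2.15 per Mb, and lowest on chromosome 15, with 63 peaks or 1.31 per Mb. They were between 18.3% (chromosome 15) and 25.8% (chromosome 5) of the shared peaks of a chromosome. The median log2 change of a chromosome's wide shared peaks lay between -0.37 on chromosome 9 and -0.22 on chromosome 25, below 0 on every chromosome with scaling to the genome mean. Of the wide shared peaks, 190 (9.05%) lay within 1 Mb of a chromosome end, as did 8.40% of narrow shared peaks and 6.05% of wide peaks in the control list alone.

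Neighbouring wide shared peaks were a median of 345 kb apart, and 62 of 2074 gaps were under 10 kb. The closest pair lay on chromosome 18 at 31647096 to 31648119 and 31648527 to 31649823, separated by 407 bp. The next closest lay on chromosome 1 at 40085276 to 40086463 and 40087789 to 40088983, separated by 1325 bp. The first peak of that pair had 20.1 and 12.5 times the genome mean (control) against 14.3 and 9.52 (actl6a), the highest mean signal below 20 among the wide shared peaks, and the lower library of each group was its replicate 2. Of the 11 highest peaks, those on chromosome 16 at 25920996 and 25930652 also lay near each other. Those on chromosome 4 at 28558744 and 28586352 lay further apart than that pair, with flanks of 32.3 to 46.4 in the 4 libraries. These pairs were chosen after their values had been seen.

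The 3 dimmest wide shared peaks lay on chromosome 1 at 30861135 to 30862512, on chromosome 13 at 14574923 to 14577752 and on chromosome 22 at 27748285 to 27750036. On chromosome 1 signal was 1.66 and 0.616 (control) against 0.555 and 0.705 (actl6a), so that a single library exceeded the genome mean. On chromosome 13 it was 1.09 and 0.948 against 0.970 and 0.596, and on chromosome 22 it was 1.44 and 0.981 against 1.28 and 0.831.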
